A study of Mus musculus with 4 samples.

Results

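Cohesin and condensin are the ring-shaped protein machines that fold and hold chromosomes, and 10 genes of these machines are described here among the 18193 genes that the arrays could name. They were chosen by name and by the complex to which their product belongs: Smc1a, Smc3, Rad21, Stag2 and the loader Nipbl for cohesin, and Smc2, Smc4, Ncaph, Ncapg and Ncapd2 for condensin. All 10 passed the brightness filter and are among the 11614 genes tested. The platform annotation pairs 29 probe sets with exactly 1 of these genes, 15 for cohesin and 14 for condensin. The brightest probe set on average stands for each gene, and the other 19 probe sets are given separately.

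Both complexes are built around a pair of SMC proteins, long coiled-coil ATPases whose heads are bridged by a kleisin, to which HEAT-repeat subunits bind. Cohesin embraces sister chromatids from replication until anaphase and also extrudes chromatin loops in interphase, so its transcripts are present in cycling and resting cells. Condensin compacts chromosomes for mitosis. In human megakaryoblastic leukemia of Down syndrome, which carries truncating mutations of GATA1, cohesin genes are recurrently mutated.

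The cells were GFP-positive leukemic blasts of a mouse M7 (megakaryoblastic) leukemia that was made by retroviral insertional mutagenesis of fetal progenitors with the Gata1s allele, which makes a shortened form of the transcription factor GATA1. The blood group held blasts sorted from peripheral blood of 2 mice and the spleen group blasts sorted from the spleens of the same 2 mice, with 1 array for each tissue of each mouse. All 4 arrays share the Gata1s allele, the GFP retrovirus and the leukemia designation T6(6), and no animal was treated. Normal progenitors and blasts with full-length Gata1 were not analysed here, so the levels have no healthy reference. Strain, age and whether T6(6) is a single clone passed between animals are not given in the sources used here. Each SE of a difference comes from the limma fit, which draws the gene's spread between these 2 animals toward that of all tested genes. An SD over the 4 arrays also holds the tissue difference. The array medians lay between 103.7 and 110.6 intensity units, and the arrays correlated at r between 0.96 and 0.98 across genes, which are not independent replicates. Of 8 markers of megakaryocytes, 7 were on the array and all 7 passed the filter, with Pf4, the platelet chemokine, between 7507 and 8680.4 and Gata1 between 2693 and 3524.

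The sequences upstream of 5 member genes are shown. Smc2, Ncapg, Ncapd2 and Smc1a carry short elements common in promoters of cell cycle genes, and Smc3 carries none. Ncaph, a condensin gene whose promoter was also matched, carries none and is not shown. A part of these elements in the tissue differences was not tested. Capitals mark CCAAT (the NF-Y element), TTTGAA (a cell cycle homology region, CHR) and the E2F-type letters TTGGCGC, each searched on both strands, so ATTGG and TTCAAA are the same elements on the other strand. RefSeq promoter sequences of build GRCm38.p6 were matched for 6 of the 10 genes, the others being Rad21, Stag2, Nipbl and Smc4. The stretches end at the base before the transcription start, except for Ncapg, which ends 25 bases upstream, and Ncapd2, for which 2 short stretches are given, 135 to 106 bases and 30 to 1 bases upstream, because other RefSeq models of these genes begin further upstream. Both Ncapd2 stretches and the last bases of the Ncapg stretch, with its TTTGAA, lie inside the span of such a model.
Smc2 (condensin, chr4:52438971-52439220, plus strand): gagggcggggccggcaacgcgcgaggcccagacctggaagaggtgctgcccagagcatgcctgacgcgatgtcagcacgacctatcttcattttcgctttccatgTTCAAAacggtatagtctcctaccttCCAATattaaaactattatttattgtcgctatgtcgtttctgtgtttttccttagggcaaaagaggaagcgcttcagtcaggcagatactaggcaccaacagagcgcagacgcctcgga
Ncapg (condensin, chr5:45669675-45669900, plus strand): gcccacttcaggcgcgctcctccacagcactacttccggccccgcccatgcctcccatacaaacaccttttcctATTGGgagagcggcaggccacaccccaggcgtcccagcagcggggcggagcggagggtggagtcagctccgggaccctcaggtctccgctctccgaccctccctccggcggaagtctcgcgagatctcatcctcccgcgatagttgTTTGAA
Ncapd2, distal stretch (condensin, chr6:125191692-125191721, minus strand): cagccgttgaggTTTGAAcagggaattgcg
Ncapd2, proximal stretch (condensin, chr6:125191587-125191616, minus strand): tagcttgaaaaccatctcgttgtTTGGCGC
Smc1a (cohesin, chrX:152016178-152016427, plus strand): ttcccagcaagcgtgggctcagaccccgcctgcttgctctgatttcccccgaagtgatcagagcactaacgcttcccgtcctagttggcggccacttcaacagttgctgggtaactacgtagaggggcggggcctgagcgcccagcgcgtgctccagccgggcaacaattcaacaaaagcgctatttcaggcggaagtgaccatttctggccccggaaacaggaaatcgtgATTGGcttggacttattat
Smc3 (cohesin, chr19:53600146-53600395, plus strand): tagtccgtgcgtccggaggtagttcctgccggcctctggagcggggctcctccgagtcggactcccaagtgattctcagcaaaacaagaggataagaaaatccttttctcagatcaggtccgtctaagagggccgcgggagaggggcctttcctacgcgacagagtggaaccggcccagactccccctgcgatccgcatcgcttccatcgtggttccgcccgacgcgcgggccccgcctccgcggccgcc

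Over the 250 bases before the start, CCAAT was found in Smc2, Ncapg, Ncapd2 and Smc1a, and in 33.8% of all 32851 promoters of the same length. TTTGAA was found in Smc2, Ncapg and Ncapd2, and in 15.99% of all promoters. The 3 condensin promoters that held both elements compare with 5.55% of all promoters, and Ncaph held neither. In Ncapd2, CCAAT occurred 3 times, beginning 177, 148 and 48 bases upstream, and TTTGAA began 123 bases upstream. In Ncapg, CCAAT began 176 and TTTGAA 30 bases upstream, and in Smc2 they began 119 and 145 bases upstream. E2F-type letters (TTGGCGC or TTCCCGC or TTCGCGC or TTGCCGC) were found in Ncapd2 and in 7.89% of all promoters, and the CHR variant TTCGAA in 1.34% of all promoters and in no matched member. These are matches of letters in a short window, not tested binding sites, and no matches overlapped.

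The comparison of spleen with blood asked how blasts at the 2 sites differed in the transcripts of these complexes. All 5 condensin genes were brighter on both spleen arrays than on both blood arrays, by 1.35-fold to 1.502-fold on average. By their brightest probe sets the cohesin genes were also higher in spleen in both mice (Nipbl in mouse 1 is the exception with quantile normalization), from 1.08-fold for Nipbl to 1.32-fold for Smc3. No member passed the test over all genes, and neither did any other gene. With limma, 0 of the 11614 genes (0%) had an adjusted p under 0.05, and the smallest adjusted p of a member was 0.188, for Smc2. With a limma variance trend 45 genes passed and without spleen replicate 1 20 did, none of them a member. Before adjustment 1443 genes had a p under 0.05, 943 of them higher in spleen and 500 lower, and that split was 766 and 603 with quantile normalization and 1310 and 354 with arrays centred on their medians. Without spleen replicate 1 it was 768 and 772, so the excess in spleen was gone, and without blood replicate 2 it was 428 and 239.

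Among the SMC subunits of condensin, Smc2 (probe set 1448635_at) went from an intensity of 1246 in blood to 1819 in spleen for mouse 1 and from 1297 to 2020.3 for mouse 2. Both spleen arrays stood above both blood arrays, and the blood arrays lay close together. The log2 difference of spleen minus blood was 0.54 in mouse 1 and 0.63 in mouse 2, with a mean of 0.59 ± 0.12 (SE of the limma fit, 2 arrays per tissue; adjusted p = 0.188). All log2 values here are of intensity plus 16.

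Smc4 (1427275_at), the partner of Smc2 in the condensin ring, went from an intensity of 2722 in blood to 3968 in spleen for mouse 1 and from 2913 to 3728 for mouse 2. The groups did not overlap, and mouse 1 had both the lowest and the highest array. Its log2 difference was 0.54 in mouse 1 and 0.35 in mouse 2, with a mean of 0.45 ± 0.12 (SE; limma adjusted p = 0.267).

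Ncaph (1436707_x_at), the kleisin that closes the condensin ring, went from an intensity of 660 in blood to 922 in spleen for mouse 1 and from 678 to 950.3 for mouse 2. The mice gave nearly the same values in each tissue, and the log2 difference was 0.47 in mouse 1 and 0.48 in mouse 2, with a mean of 0.48 ± 0.11 (SE; limma adjusted p = 0.224). The suffix _x_ marks a probe set with some probes that can match other transcripts, so this level is less certain than that of the other subunits.

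Ncapg (1429171_a_at), a HEAT-repeat subunit, went from an intensity of 443 in blood to 616 in spleen for mouse 1 and from 516 to 824 for mouse 2. Mouse 2 was the higher animal in both tissues, by 0.22 on the log2 scale in blood and 0.41 in spleen, a spread that gave this gene the widest error of the 10. Its log2 difference was 0.46 in mouse 1 and 0.66 in mouse 2, with a mean of 0.56 ± 0.17 (SE; limma adjusted p = 0.317), and the mean was 0.35 without spleen replicate 2. That error is of the fit without a term for mouse. With mouse added as a block, Ncapg differed by 0.56 ± 0.11 (SE; limma adjusted p = 0.209). Ncapd2 (1423847_at), the other HEAT-repeat subunit, went from 1403 to 1918 for mouse 1 and from 1565 to 2113 for mouse 2. Its log2 difference was 0.45 and 0.43 in the 2 mice, with a mean of 0.44 ± 0.12 (SE; limma adjusted p = 0.305).

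**Figure D1:**
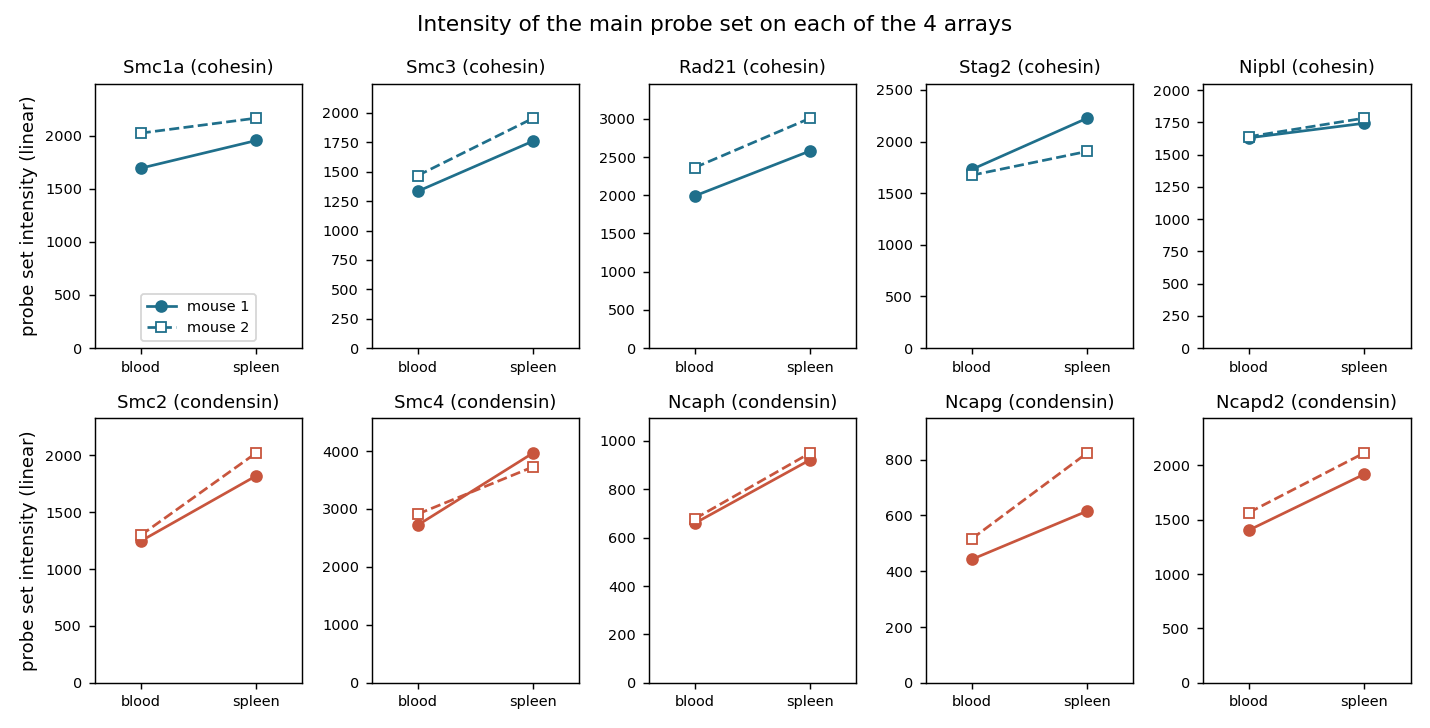
Intensity of the main probe set of each gene (vertical axis, linear scale from 0) in blood and spleen, with a line joining the 2 arrays of each mouse (filled circles mouse 1, open squares mouse 2; blue cohesin, red condensin). Every line slopes up from blood to spleen, though with quantile normalization that of Nipbl in mouse 1 does not and averaging all probe sets turns both lines of Smc3 and that of Nipbl in mouse 2. Smc1a is the gene whose tissues overlap, since blood of mouse 2 at 2023 lies above spleen of mouse 1 at 1953.

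Among the SMC subunits of cohesin, Smc3 (1450950_at) went from an intensity of 1334 in blood to 1762 in spleen for mouse 1 and from 1468 to 1956 for mouse 2. The groups did not overlap. Mouse 1 gave 0.40 and mouse 2 gave 0.41 on the log2 scale, and the mean was the largest of the cohesin genes, at 0.40 ± 0.12 (SE; limma adjusted p = 0.317). Smc1a (1417830_at), its partner in the ring, went from 1693 to 1953 for mouse 1 and from 2023 to 2164 for mouse 2. The tissues overlapped, because both tissues of mouse 2 were brighter than those of mouse 1. Its log2 difference was 0.20 in mouse 1 and 0.096 in mouse 2, with a mean of 0.15 ± 0.14 (SE; limma adjusted p = 0.687), about the size of its error. Leaving out the blood array of mouse 1 gave a mean of 0.023 and leaving out that of mouse 2 one of 0.28, while it was 0.077 when the spleen array of mouse 2 was left out and 0.075 with quantile normalization.

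Rad21 (1416161_at), the kleisin that separase cuts at anaphase, went from an intensity of 1992 in blood to 2581 in spleen for mouse 1 and from 2363 to 3009 for mouse 2. Its log2 difference was 0.37 in mouse 1 and 0.35 in mouse 2, with a mean of 0.36 ± 0.14 (SE; limma adjusted p = 0.394), and the mean was 0.24 without blood replicate 1. Mouse 2 was again higher in both tissues, by 0.24 in blood and 0.22 in spleen on the log2 scale.

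Stag2 (1421849_at), the HEAT-repeat subunit that contacts CTCF and is often mutated in myeloid disease, went from an intensity of 1730.5 in blood to 2227 in spleen for mouse 1 and from 1675 to 1905 for mouse 2. Here mouse 1 was the higher animal. The log2 difference was 0.36 in mouse 1 and 0.18 in mouse 2, with a mean of 0.27 ± 0.13 (SE; limma adjusted p = 0.441), and the mean was 0.16 without spleen replicate 1. By its brightest probe set (1437158_at) Nipbl, which loads cohesin and drives loop extrusion, was the most even gene of the set. Its intensity went from 1630.25 to 1743 for mouse 1 and from 1639 to 1783 for mouse 2. Its log2 difference was 0.096 and 0.12 in the 2 mice, with a mean of 0.11 ± 0.11 (SE; limma adjusted p = 0.720), and the mean was 0.045 with quantile normalization.

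As a group, the condensin genes had a median log2 difference of 0.48 and the cohesin genes one of 0.27, against 0.029 over all 11614 tested genes. By their brightest probe sets, all 10 members were higher in spleen in both mice, against 38.5% of all tested genes. With quantile normalization 9 were, because Nipbl was at -0.0036 in mouse 1, and with the probe sets of each gene averaged 8 were, without Smc3 and Nipbl. Of the condensin genes 5 of 5, and of the cohesin genes 4 of 5, had both spleen arrays above both blood arrays, against 27.5% of all tested genes. An unadjusted p under 0.05 with the higher level in spleen was reached by 5 of 5 condensin genes and by 2 of 5 cohesin genes, Smc3 and Rad21, against 8.12% of all tested genes. These counts depend on single arrays: without blood replicate 1 they were 2 condensin and 0 cohesin genes, and without spleen replicate 2 they were 3 and 1. The cohesin count was 1 with an offset of 1, without the brightness filter or with quantile normalization, and 3 with centred arrays, averaged probe sets or a variance trend. These shares describe genes that share arrays and cells, so the members are not independent replicates. A median over the members carries no p-value here, because the genes were chosen with earlier results known.

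Set against each other within a mouse, the condensin median exceeded the cohesin median by 0.11 in mouse 1 and by 0.29 in mouse 2. The condensin median was almost the same in the mice, at 0.47 and 0.48, while the cohesin median was 0.36 in mouse 1 and 0.18 in mouse 2. Of the 25 pairs of a condensin with a cohesin gene, the condensin gene had the larger difference in 25 in mouse 1 and in 24 in mouse 2, where Smc4 at 0.35 lay below Smc3 at 0.41. The neighbours in this order, Ncapd2 at 0.44 and Smc3 at 0.40, differed by less than the error of either. The separation of the complexes rests on the probe sets and arrays used. When the probe sets of each gene were averaged, the smallest condensin difference was 0.38 and the largest cohesin difference 0.50, for Rad21. Without spleen replicate 1 these values were 0.40 and 0.48, and without spleen replicate 2 they were 0.35 and 0.38. The gap between the medians was above 0 under every alternative tried. Changing the filter, mouse as a block, a variance trend and median centring cannot move this gap. It was 0.16 when Nipbl, a loader rather than a ring subunit, was left out.

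**Figure D2:**
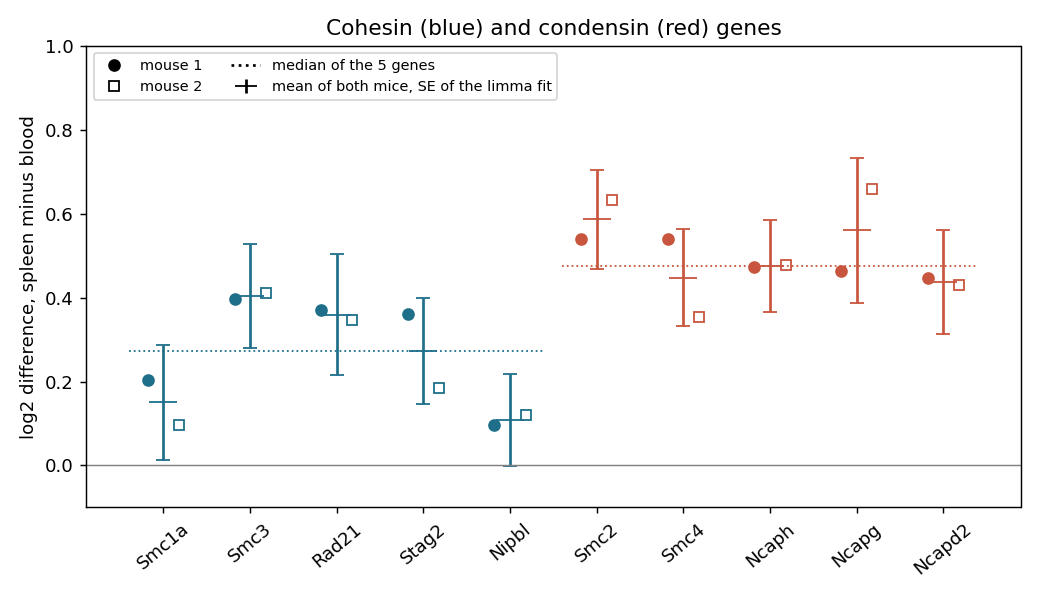
Log2 difference of spleen minus blood for each gene (vertical axis, log2 of intensity plus 16) in mouse 1 (circles) and mouse 2 (open squares), with the mean and the SE of the limma fit, and a dotted line at the median of each complex. The condensin genes (red) lie between 0.35 and 0.66 and the cohesin genes (blue) between 0.096 and 0.41.

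In level, the 4-array mean of the main probe set ran from 1629.8 to 2486 among the cohesin genes and from 599.6 to 3333 among the condensin genes. The ranges overlap, with Smc4 at 3333 ± 608 (SD, n = 4 arrays), Rad21 at 2486 ± 425, Nipbl at 1699 ± 75.9 and Ncapg at 599.6 ± 166. Probe sets differ in brightness for the same amount of RNA, so these levels place no gene or complex above another. On these probe sets, the spread over the arrays was smallest for Nipbl and largest relative to the mean for Smc2 (1595 ± 384) and Ncapg. Spread also depends on the probe set read, as for Smc1a, whose tissues differed by 0.15 on 1417830_at and by 0.55 on 1417831_at.

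The 29 probe sets gave the same direction for most genes but not all. For condensin, all 14 were brighter in the spleen of each mouse, with log2 differences averaged over the mice between 0.33 and 0.88 and a median of 0.64. Of the 15 cohesin probe sets, 11 were higher in both mice, 3 were lower in both and 1 differed between the mice, with a range from -0.53 to 0.76 and a median of 0.27. The condensin probe set with the largest value was a second probe set of Ncapg (1429172_a_at), at 0.76 in mouse 1 and 1.00 in mouse 2.

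For 7 of the 10 genes, all but Smc3, Nipbl and Ncapd2, every dimmer probe set differed more than the one used. Smc2 had 5 probe sets, all higher in both mice, and the 4 dimmer ones averaged between 0.71 and 0.83 against 0.59 for the brightest. Smc1a was at 0.15 with its brightest probe set and at 0.55 and 0.47 with its other probe sets (1417831_at and 1417832_at). On 1417831_at its intensity went from 872 in blood to 1297 in spleen for mouse 1 and from 965 to 1414 for mouse 2, so that the tissues no longer overlapped. Rad21 was at 0.76 with 1416162_at, which went from 447 to 785 for mouse 1 and from 499 to 834 for mouse 2. The third probe set of Rad21 (1455938_x_at) was at 0.37, the second of Stag2 (1450396_at) at 0.37, the second of Ncaph (1423920_at) at 0.70, and the other probe sets of Smc4 (1452197_at and 1427276_at) at 0.53 and 0.72. Ncapd2 went the other way, with 0.33 on its dimmer probe set (1430010_at). How close the brightest probe sets were to saturation is not known from these values.

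Smc3 and Nipbl had probe sets of opposite sign. The second probe set of Smc3 (1450951_at) went from an intensity of 200.5 in blood to 148 in spleen for mouse 1 and from 247 to 151 for mouse 2, which gave log2 differences of -0.40 and -0.65. With the mean of both probe sets Smc3 differed by -0.062 ± 0.12 (SE), so its direction depends on which probe set is read. Nipbl had 5 probe sets, of which the brightest pair were higher in spleen in both mice, 1453576_at and 1442103_at were lower in both, at -0.10 and -0.44 on average, and the dimmest (1443992_at), which lay below the brightness filter, went both ways. With the mean of all 5, Nipbl differed by -0.050 ± 0.11 (SE). The part of each transcript that these probe sets read is not given in the files.

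**Figure D3:**
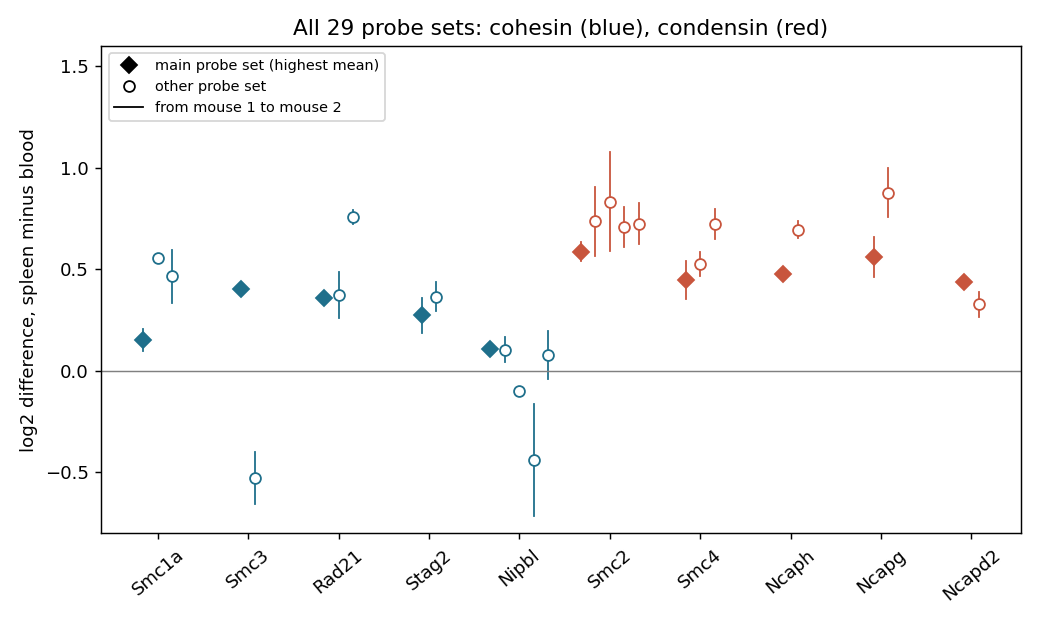
Log2 difference of spleen minus blood, averaged over the mice, for all 29 probe sets (diamonds: the brightest of a gene; open circles: the others), with a line from the value of mouse 1 to that of mouse 2. The condensin probe sets (red) all lie above 0, from 0.33 to 0.88, while 1 probe set of Smc3 and 2 of Nipbl (blue) lie below 0.

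For each condensin gene, read by its brightest probe set, the animals differed by less than the tissues did in either mouse. Mouse 2 minus mouse 1 lay between 0.039 and 0.22 in blood and between -0.090 and 0.41 in spleen for the condensin genes, on the log2 scale. For the cohesin genes it lay between -0.047 and 0.25 in blood and between -0.22 and 0.22 in spleen, and the mouse differences of Smc1a, 0.25 in blood and 0.15 in spleen, compare with tissue differences of 0.20 and 0.096. Each side of this comparison is 1 animal and there is no test.

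The other genes of these pathways were read from lists grouped by role. As background for their counts, spleen exceeded blood within each mouse for 38.5% of all tested genes. Of 7 further cohesin subunits 4 were tested, and 3 were higher in spleen in both mice. Pds5b, a HEAT-repeat protein that stays on chromatin with cohesin, had the largest difference, from an intensity of 449 in blood to 730 in spleen for mouse 1 and from 439 to 779 for mouse 2. Both spleen arrays stood far above both blood arrays, and the mean log2 difference was 0.74 ± 0.11 (SE; limma adjusted p = 0.140). Its paralog Pds5a differed by 0.072 in mouse 1 and -0.028 in mouse 2. Of the meiotic subunits, Smc1b and Stag3 were below the brightness filter. Rec8 passed it and differed by 0.097 in mouse 1 and 0.15 in mouse 2. Its mean was 0.12 ± 0.18 (SE; limma adjusted p = 0.818).

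Of 11 regulators of cohesin 10 were tested, 9 of them higher in both mice and 1 lower, with a median of 0.35. Sgo1, the shugoshin that shields centromeric cohesin from early removal, differed by 0.71 ± 0.16 (SE; limma adjusted p = 0.210), and its relative Sgo2a by 0.47 ± 0.11. Cdca5, the sororin that stabilises cohesin on replicated DNA, differed by 0.47 ± 0.13, and Wapl, which releases cohesin, by 0.32 ± 0.12. The gene that was lower in both mice was Esco1, an acetyltransferase for Smc3 that is active throughout interphase, at -0.21 ± 0.14. Ctcf, the DNA-binding protein at which cohesin loops stop, differed by 0.073 ± 0.14, near the value of Nipbl.

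Condensin II shares Smc2 and Smc4 with condensin I and has its own kleisin and HEAT-repeat subunits. Of 4 genes on that list, all tested, 3 stood above their blood level in each mouse, with a median of 0.26. Ncapg2 went from 548 to 810 for mouse 1 and from 564 to 840 for mouse 2, with a mean log2 difference of 0.56 ± 0.11 (SE; limma adjusted p = 0.187), close to that of Ncapg. Ncapd3 and Ncaph2 differed by 0.27 ± 0.11 and 0.25 ± 0.16, and Mcph1, which restrains condensin II before mitosis, by 0.057 ± 0.12. Of 7 genes of the third SMC complex, SMC5/6, and the SMC-like Smchd1, 5 were higher in both mice, with a median of 0.19, and the largest values were those of Smchd1 at 0.41 ± 0.11 and Nsmce4a at 0.30 ± 0.12.

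Most genes of mitosis and replication were also higher in spleen. All 13 tested genes of a mitosis list stood above their blood level in the spleen of each mouse, with a median of 0.76, and the largest values by the smaller of the differences in the 2 mice were those of the checkpoint kinase Bub1 (1.05 ± 0.14), the spindle kinase Aurka (1.17 ± 0.15), cyclin A2, Ccna2 (0.90 ± 0.13), and the chromosomal passenger kinase Aurkb (0.83 ± 0.11). The condensin median of 0.48 lay below every gene of that list, the lowest of which was Mki67 at 0.49 ± 0.11. Of 15 replication genes 13 were higher in both mice, with a median of 0.32, between those of cohesin and condensin, and the leading genes were Ccne2 (0.64 ± 0.12), Rrm1 (0.60 ± 0.12), Cdc6 (0.63 ± 0.11) and Gins2 (0.50 ± 0.11). None of the genes on these lists passed over all genes. The share of cycling cells was not measured, and in bulk RNA a larger share of cells in mitosis and more RNA per cell cannot be told apart.

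**Figure D4:**
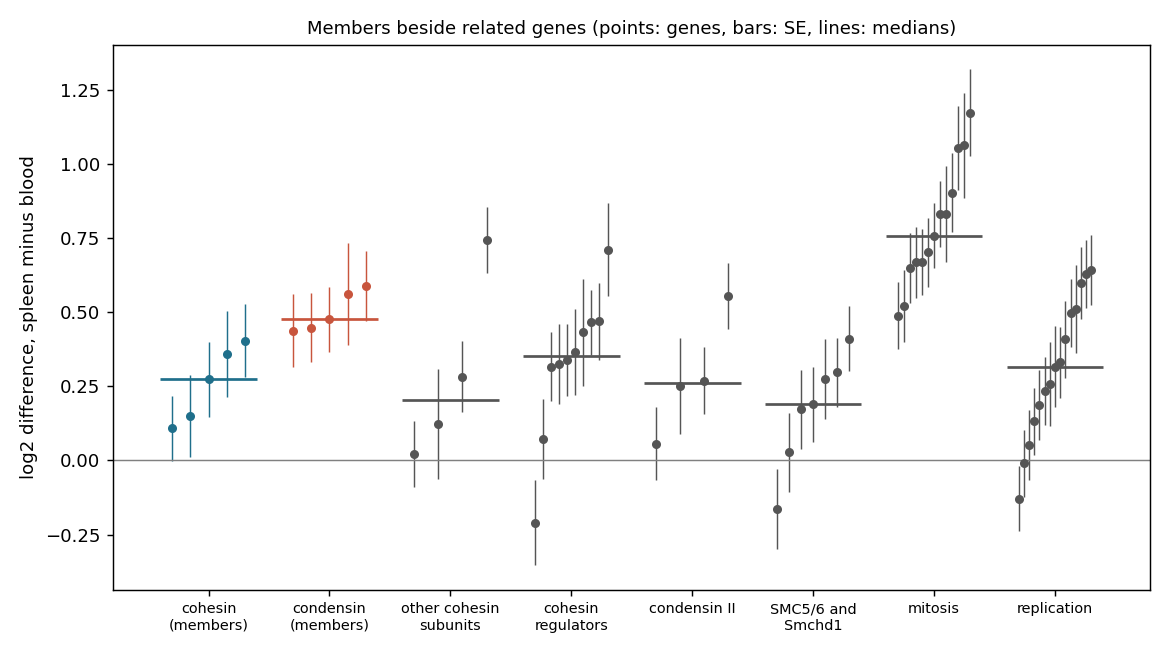
Log2 difference of spleen minus blood for the cohesin and condensin genes beside the tested genes of 6 related lists (points: genes with the SE of the limma fit; horizontal lines: medians). The condensin median of 0.48 lies above those of condensin II (0.26) and replication (0.32) and below that of mitosis (0.76), and the cohesin median of 0.27 lies close to that of condensin II.

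The genes whose profile over the 4 arrays was most like that of condensin were chosen by the root mean square distance between log2 values centred on each gene's mean. The nearest 5 were the serine synthesis enzyme Psat1 (a distance of 0.006), Top2a, the topoisomerase that untangles chromosomes together with condensin (0.011), the recombination gene Rad54l (0.014), the spindle protein Dlgap5 (0.022) and the nuclear export factor Cse1l (0.022). Top2a went from an intensity of 2467 in blood to 3512 in spleen for mouse 1 and from 2685 to 3891 for mouse 2. The members themselves lay between 0.035 and 0.11 from their own mean profile, and 396 other tested genes lay closer to it than the farthest member. For cohesin the nearest 5 were Ppat, Fam136a, Egln3, Rbck1 and Gm10336, at distances from 0.005 to 0.015, but 2849 other tested genes lay closer than the farthest member, so this profile sets few genes apart. With 4 arrays these distances describe the arrays and carry no test.

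Markers of other blood cells differed between the arrays as well. As background, spleen fell below blood within each mouse for 2914 of the 11614 tested genes and exceeded it for 4474. Of 10 granulocyte markers 9 were on the array and 7 were tested, with 0 higher and 6 lower in spleen in both mice. Their summed intensity went from 6180.2 to 3604 between blood and spleen for mouse 1 and from 15772 to 876 for mouse 2. Of 10 macrophage and monocyte markers 9 were on the array and 6 were tested, 0 higher and 1 lower in both mice. The 9 had sums of 1513 and 2212 in mouse 1 and of 3400.1 and 1093 in mouse 2. The dim, untested C1qb and C1qc went from 30.9 to 273 and from 29.7 to 231 in mouse 1. In mouse 2 C1qb went from 62.2 to 60.8 and C1qc from 37.3 to 71.7. Of 10 T and NK cell markers 8 were on the array and 7 were tested, 0 higher and 3 lower in both mice, with sums of 6448 and 7434 in mouse 1 and of 8907 and 4769.8 in mouse 2. Most of these T and NK sums was Nkg7 (3556 to 4159) and Gzma (171 to 3486), while Cd3e, Cd3d and Cd3g were at most 322. Of 6 erythroid markers 4 were on the array and 2 were tested. The 4 summed to 2968 and 2911 in mouse 1 and to 3385 and 3079.6 in mouse 2. Most of that was Klf1 (1762 to 2081) and Epor (847 to 1220), while Hba-a1 was at most 100 and Alas2 at most 37. Of 5 B cell markers 4 were on the array and 1 was tested (Pax5), and the 4 summed to at most 468 on any array. Camp, a granulocyte marker, was below 0 on the spleen array of mouse 2, and C1qa, a macrophage marker, was below 0 on every array but that of spleen of mouse 1. The median granulocyte difference was -0.37 in mouse 1 and -3.61 in mouse 2, beside condensin medians of 0.47 and 0.48 and cohesin medians of 0.36 and 0.18. The megakaryocyte markers differed in the direction of the condensin genes, with 6 of the 7 tested higher in spleen in both mice, 0 lower and a median of 0.23. Their summed intensity went from 19203 in blood to 22079 in spleen for mouse 1 and from 18923 to 23325 for mouse 2. Gp1bb, a platelet adhesion receptor subunit, differed by 1.06 ± 0.16 (SE; limma adjusted p = 0.143), the platelet chemokine Ppbp by 0.99 ± 0.20 and von Willebrand factor, Vwf, by 0.72 ± 0.12, each more than any condensin member by its brightest probe set. The other markers lay between 0.071 and 0.23, and Itga2b, at -0.0033 in mouse 1 and 0.14 in mouse 2, was the one not higher in both. The part of any of these marker lists in the condensin and cohesin differences was not tested.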

How the data were processed

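Gene expression was measured on 4 Affymetrix arrays. Linear intensities per probe set were deposited, judging from the values, and the authors' probe summary, background step and scaling are not given in the sources used here. RNA was extracted with Trizol and columns, per the labels' protocols. Negative values were raised to 0 before adding 16 and converting to log2, which understates changes of dim genes. Of 45101 probe sets, 34945 name 1 gene. Names were updated through Entrez identifiers with RefSeq (GRCm38.p6). Each of 18193 genes was given its brightest probe set by mean log2 value. The 11614 genes whose mean log2 value was at or above that of an intensity of 106 were tested. The test was limma 3.58.1 in R 4.3.3 (tissue as the sole term, two-sided, Benjamini-Hochberg over all genes tested, threshold 0.05). The test was checked on simulated data. The mouse numbers pair the arrays, since both tissues came from the same animal; as a check, the blood arrays' deviations between the animals and the spleen arrays' had r = 0.10 over genes. P-values rest on the spread between 2 animals, drawn by the fit toward that of all tested genes, and the number of arrays limits precision.

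The members, the lists and the tests were chosen with earlier results of these data known. Named genes were all members, the 5 nearest profiles and some, not all, of the genes behind counts of 5 or fewer. Up to 4 genes of each related list with an unadjusted p under 0.05 were also named, by the smaller within-mouse difference. Pds5a, Smc1b, Stag3, Rec8, Ctcf, Ncapd3, Ncaph2, Mcph1 and Mki67 were named after their values were seen. So were the markers Pf4, Gata1, Camp, C1qa, C1qb, C1qc, Pax5, Itga2b, Gp1bb, Ppbp and Vwf. The markers Klf1, Epor, Hba-a1, Alas2, Nkg7, Gzma, Cd3e, Cd3d and Cd3g were also named in that way. Summed marker levels set values below 0 to 0.

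Alternatives were another offset (1 or 64), no brightness filter or a minimum of 200, quantile normalization, median centring, the mean of all probe sets, mouse as a block, a variance trend, and leaving out each array. Leaving Nipbl out of cohesin was added after the data were seen.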

Additional observations from a re-analysis of the deposited data

Results flagged for a closer look

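A probe set of Nipbl (1443992_at) differed between spleen and blood by 0.19 in mouse 1 and by -0.038 in mouse 2, opposite directions in the mice with a difference of -0.23. It lay below the brightness filter, and the difference between the mice was not tested. The median of the macrophage and monocyte markers was 0.28 in mouse 1 and -1.13 in mouse 2, a difference of -1.41 that was not tested either.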

How the results depend on the processing

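Changing the filter, mouse as a block and a variance trend cannot change a member's log2 difference, only its test. Each member but Smc3 and Nipbl kept the direction of its mean difference under all 13 alternatives, these included. With the mean of all probe sets Smc3 and Nipbl turned to -0.062 and -0.050. Under each of these alternatives no member passed over all genes. The smallest adjusted p of a member was 0.0757, for Smc2 with a limma variance trend. The condensin median was 0.48 with an offset of 1, 0.45 with an offset of 64, 0.42 with quantile normalization, 0.52 with centred arrays and 0.59 with the mean of all probe sets, and ran from 0.45 to 0.52 when 1 array was left out, always above the cohesin median, which ran from 0.20 to 0.32 over the alternatives. The number of genes passing over all genes was 45 with a variance trend and ran from 0 to 20 when 1 array was left out, with 20 without spleen replicate 1, none of them a member. With mouse as a replicate block 0 genes passed and no call changed. Under that fit the smallest adjusted p of any gene was 0.173. Genes with an unadjusted p under 0.05 numbered 943 higher and 500 lower in spleen, against 766 and 603 with quantile normalization and 1310 and 354 with centred arrays, and 768 and 772 without spleen replicate 1. With 2 animals the precision is set by the number of arrays.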
